A study of Mus musculus with 12 samples.

Results

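The vehicle-treated basal prostate organoids are the drug-free baseline of this series, and their members were chosen by the treatment label alone. They make up 3 of 12 samples (replicates 1 to 3). All 12 samples were organoids, small cultures that grow in a gel from single epithelial cells, raised from basal cells of the prostate of wild-type C57BL/6 mice. The other 9 samples received UK5099, which blocks the mitochondrial pyruvate carrier, butyrate, an inhibitor of histone deacetylases, or both drugs together (the combination), with 3 samples in each group. Every culture, vehicle included, therefore shared the wild-type genotype, the basal origin and the organoid medium. In the primary cell experiments of the study the mice were adult males and basal cells were sorted as EpCAM+ CD49f-high. The labels do not name the vehicle, the time in culture or whether the replicates came from different mice, so the spread between replicates may be technical.

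The prostate epithelium has an outer basal layer and an inner luminal layer. Basal cells carry keratins 5 and 14 and the transcription factor p63 and rest on a basement membrane. Luminal cells carry keratins 8 and 18 and release the citrate-rich and zinc-rich prostatic fluid together with its secreted proteins. Basal cells placed in organoid culture can give rise to luminal cells. A baseline transcriptome of such a culture, kept with vehicle, therefore shows which parts of both programmes are transcribed without either drug.

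The table gives TPM, which divides the fragments of each gene by its length and brings every sample to a total of 1000000. The lengths used for them were the genomic spans of the genes, introns included. Levels of different genes are therefore given below as TPM per exonic length, recomputed from the same fragments with the merged exons of each gene, and shares of the library are given in fragments, as TPM times the listed length. The vehicle samples held 34375436, 33251850 and 42541318 fragments, and the 12 samples between 33251850 and 43499010. Protein-coding genes took 91.9% ± 0.111 of vehicle fragments (SD, n = 3), pseudogenes 5.78% ± 0.0332 and mitochondrial genes 2.59% ± 0.114. In the treated samples pseudogenes took 6.04 to 7.601% and mitochondrial genes 2.56 to 4.87%.

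The vehicle samples transcribed most of the protein-coding genes that were measured. A gene was called present when it reached 1 TPM per exonic length in every vehicle sample. By this limit 11564 of 15901 protein-coding genes (72.7%) were present, 3984 were under the limit in all 3 samples, and 353 lay on either side of it. The lowest total of any listed gene over the 12 samples was 10 fragments, so genes with fewer are not among the 15901. A gene that gave no value below may have had fewer fragments or may be missing for another reason. A level of 100 was reached in every sample by 1246 genes and a level of 1000 by 72 genes. The median present gene stood at 20.2 TPM per exonic length, and its coefficient of variation between the vehicle samples was 3.05% at the median.

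The nuclear library was spread over many genes. The 20 genes with the most fragments held 6.25% ± 0.0293 of nuclear protein-coding fragments, the leading 100 held 16.2% ± 0.0341, and 1023 genes were needed to reach 50%. The first was Eef1a1, a translation elongation factor, with 239988, 232083 and 298640 fragments, or 0.699% ± 0.00228 of the library. Scd2, a fatty acid desaturase, followed with 0.400% ± 0.00623, and Ahnak, a large scaffold protein, with 0.379% ± 0.0166. The ranges of Scd2 and Ahnak overlapped, although Scd2 ranked above Ahnak in each of the 3 samples.

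Among these 20 genes, epithelial structure was well represented. Krt19, Krt15 and Krt5 are keratins, Cdh1 is the cadherin of epithelial junctions, Sdc1 a cell surface proteoglycan and Itgb1 an integrin subunit. Actb, Actg1 and Flna belong to the actin skeleton, Anxa1 and Anxa2 are membrane-binding annexins, Hsp90ab1 is a chaperone, Eef2 an elongation factor and Pkm a glycolytic enzyme. Chd9, a chromatin remodeller, stood at rank 16 with 0.2002% ± 0.00258. Sprr2a2 stood at rank 12 with 0.234% ± 0.00605, but its listed span of 40805 bp is far longer than its exons and near-identical copies lie in the same cluster, so its level is uncertain.

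Ranked by TPM per exonic length instead, 9 of these 20 genes stayed among the leading 20. Short genes then entered: S100a11 at 5836 ± 41.8, S100a6 at 2953 ± 51.0, Mt2 at 2952 ± 41.8, Ptma at 2647 ± 59.2 and Ifitm3 at 2232 ± 8.85. The rest of the entries were Cldn4, Krt14 and Krt18, and Rpl10-ps3, Gm11808 and Rps27rt, which are listed without introns. Intronless genes of this kind can be near-identical copies of other genes, so the levels of these 3 are uncertain. Of the 19 neighbouring pairs in this order, 8 overlapped between the vehicle samples and were not resolved. Along the order by fragments, 7 of 19 overlapped.

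Basal and luminal markers were both abundant in every vehicle sample. Krt5 (chromosome 15, 101615505 to 101621333 as listed), the basal type II keratin, stood at 2756, 2770 and 2764 TPM per exonic length, or 2763 ± 7.08. Its partner Krt14 (chromosome 11, 100093988 to 100098374) stood at 2312, 2370 and 2391. These ranked 22 and 28 among 15901 protein-coding genes.

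Luminal keratins reached the same range. Krt8 (chromosome 15, 101905133 to 101912917) stood at 2072, 2074 and 2013, and its partner Krt18 (chromosome 15, 101936615 to 101940462) at 2214, 2246 and 2186. Epcam, the surface adhesion protein used to sort epithelial cells, stood at 2055, 2120 and 2080. Ranks were 37, 31 and 36. No vehicle sample had a low value for any of these 5 genes.

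Trp63 (chromosome 16, 25502513 to 25710852), which encodes the basal transcription factor p63, stood at 71.2, 73.8 and 74.5, rank 1819. A level far under that of the keratins is usual for a transcription factor. Within each sample Krt5 exceeded Krt8 by 1.35-fold ± 0.0232 and Krt14 exceeded Krt18 by 1.06-fold ± 0.0262, in 3 of 3 samples each. Krt8 stood below Krt18, at a ratio of 0.927 ± 0.00794, but the order turned when fragments were not divided by length. In bulk cultures, a smaller number of cells of a type and less RNA in each such cell cannot be told apart, and cells that hold both sets of keratins cannot be told from a mixture.

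The wider basal list had 21 of 22 members present, with a median of 287 TPM per exonic length beside 10.4 over all protein-coding genes. Krt15, a keratin of stem-like basal cells, was its highest member at 4029 ± 64.1, and Itgb1 stood at 1264 ± 1.66. Itga3 and Itga6, the alpha chains that pair with integrin beta subunits to bind laminin, stood at 750 ± 2.29 and 268 ± 2.59. Itga6 is CD49f, the antigen used to sort basal cells. The lowest members were the neurotrophin receptor Ngfr at 6.87 ± 0.353, the zinc finger factor Bcl11b at 5.10 ± 0.233 and Dlk2, which stood at 0.802, 0.706 and 1.25 and so straddled the limit.

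Luminal keratin and adhesion genes had 12 of 13 members present, with a median of 640. Krt19 led at 4411 ± 89.7, followed by the tight junction claudin Cldn4 at 2573 ± 49.6. At the low end, Krt20 stood at 5.54 ± 0.878 and the mucin Muc1 at 0.649 ± 0.118, with 21, 14 and 23 fragments. All 12 luminal progenitor genes were present. Ly6a, which encodes Sca-1, stood at 1420 ± 28.4, the secreted chaperone Clu at 1093 ± 10.3, Wfdc2 at 727 ± 8.90 and Krt4 at 667 ± 36.7. Pigr, the receptor that carries immunoglobulin into secretions, was lowest at 1.60 ± 0.108.

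**Figure D1:**
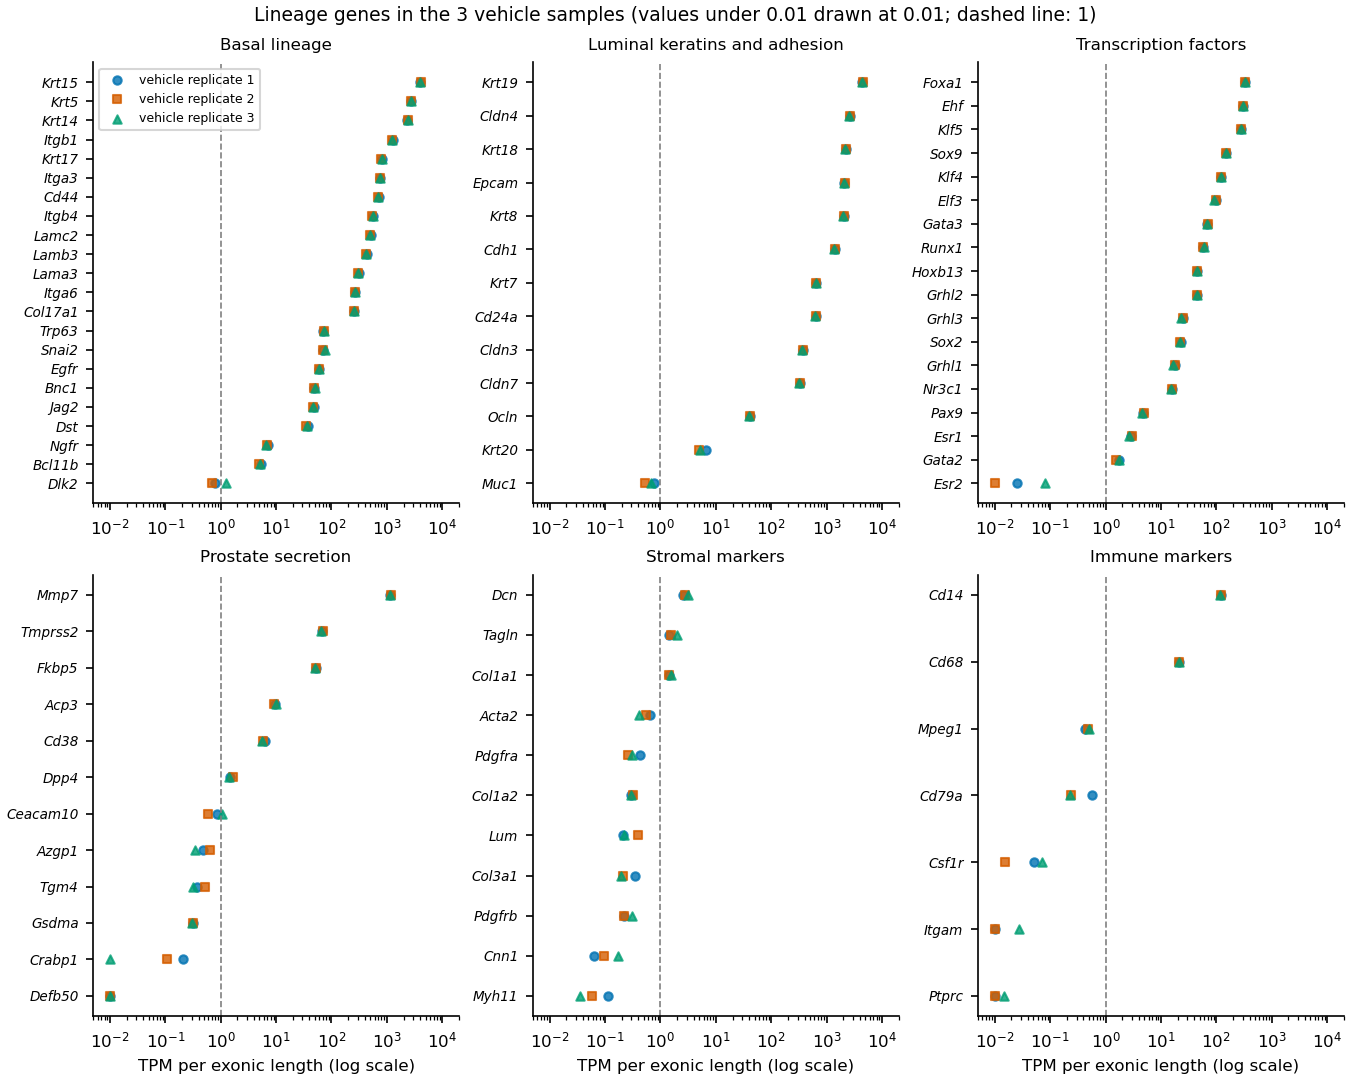
Levels of lineage genes in vehicle organoids, in TPM per exonic length on a log axis, with 1 gene per line and 1 point for each of the 3 samples. The dashed line marks 1, the limit for present, and values under 0.01 are drawn at 0.01. Krt5, Krt14, Krt8 and Krt18 sit at 2013 or more, while 8 of 11 stromal and 5 of 7 immune markers sit under 1 in every sample.

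Epithelial and prostate transcription factors were mostly present, with 17 of 18 members over the limit. Foxa1, a pioneer factor of the luminal prostate, led at 333 ± 4.47, ahead of the ETS factor Ehf at 308 ± 2.41, Klf5 at 280 ± 4.70 and Sox9 at 148 ± 1.43. Klf5 exceeded Klf4 by 2.31-fold ± 0.0677, and Grhl2 exceeded Grhl3, both regulators of epithelial junctions, by 1.85-fold ± 0.0590. The estrogen receptors were low. Esr1 stood at 2.85 ± 0.187, while Esr2 had 1, 0 and 4 fragments.

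The list of prostatic secretion ranged from abundant to undetected genes. Of 18 listed genes 6 were present, 5 were under the limit in every sample, 1 straddled it and 6 (Pbsn, Sbp, Spink1, Msmb, Pate4 and Trpm8) gave no value here. The highest was Mmp7, a matrix protease of secretory epithelia, at 1151, 1184 and 1123. Tmprss2, an androgen-regulated surface protease, stood at 66.8 ± 2.66, Fkbp5, an androgen-regulated chaperone, at 52.2 ± 1.07 and Acp3, prostatic acid phosphatase, at 9.499 ± 0.345. At the other end, Gsdma had 10, 10 and 12 fragments, Crabp1 had 2, 1 and 0, and Defb50, a beta-defensin, had none. The count of 0 for Defb50 allows up to 0.706 TPM per exonic length, the level of 3 fragments in the shallowest sample.

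Seminal vesicle genes gave no value for any of 7 members. Among enzymes and cofactors tied to androgen action, 6 of 11 were present and 2 (Srd5a2 and Hsd17b6) gave no value. Srd5a1, a steroid 5-alpha-reductase, stood at 311 ± 4.45 and the metalloreductases Steap4 and Steap2 at 86.6 ± 0.760 and 29.9 ± 0.472. Hsd11b2, Hsd17b2 and Akr1c18, which interconvert or inactivate steroids, had no more than 10 fragments in any vehicle sample. 

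The published basal and luminal signatures that the study used, written as mouse symbols, differed in how many members were present. Among all protein-coding genes with a value 72.7% were present. Of 20 basal signature genes 19 gave a value and 15 were present. Of 71 luminal signature genes 57 gave a value and 25 were present, while 32 were under the limit and 14 gave no value. With a limit of 1 on deposited TPM the counts fell to 9 and 10. The basal signature was led by Krt5, Col17a1, Pdpn and Col7a1. The luminal signature was led by Cldn3 at 373 ± 10.9 and Cp, the copper oxidase ceruloplasmin, at 337 ± 2.71.

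Most measured markers of other cell types were low. Of 53 such genes 9 were present, 26 were under the limit in every vehicle sample and 17 gave no value. The count of 9 rested on the limit, with 2 at a limit of 5 TPM per exonic length, 3 at 1 deposited TPM and 17 at 10 fragments. The pan-leukocyte gene Ptprc had 0, 0 and 4 fragments and the endothelial receptor Kdr had 2, 0 and 0. The neuroendocrine granule gene Chga stood at 0.168 ± 0.04998, and the smooth muscle myosin Myh11 at 0.0683 ± 0.0390. Fibroblast genes were low but detected, with Dcn at 2.84 ± 0.333 and Col1a1 at 1.46 ± 0.0674.

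Only Cd14 and Cd68 of these markers stood above 10. Cd14, a co-receptor for bacterial lipopolysaccharide best known from monocytes, stood at 121, 124 and 119, and Cd68, a lysosomal glycoprotein, at 21.5, 20.9 and 20.9. The other immune genes measured in the same samples were at 0.473 or less, including the macrophage genes Mpeg1, with 22, 24 and 32 fragments, and Csf1r, with 3.47, 1.00 and 6.09. Without Cd14 and Cd68, the summed level of all the other marker genes was 21.4 to 23.4 TPM per exonic length.

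Squamous differentiation genes, which mark the keratinising fate of stratified epithelia, ranged widely in level. Of 26 listed genes 20 were present and 5 were under the limit. Sfn, the 14-3-3 sigma protein, led at 2198 ± 6.49, with the stress keratin Krt6a at 1117 ± 14.2, Sprr1a at 478 ± 5.80 and the desmosomal cadherin Dsc2 at 161 ± 3.03. The lowest members were Tgm3, Sprr3 and Cnfn. Tgm3 had 5, 3 and 5 fragments, Sprr3 had 0, 1 and 0, and Cnfn had none, which allows up to 0.366 TPM per exonic length.

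Of 10 mesenchymal genes 5 were present. Fn1, fibronectin, stood at 234, 222 and 231 and Spp1, osteopontin, at 72.6 ± 3.16. Vim, the mesenchymal intermediate filament, stood at 8.44 ± 0.353. The repressors Zeb1 and Zeb2 and the cadherin Cdh2 stood at 0.119 ± 0.0516, 0.0278 ± 0.0163 and 0.0940 ± 0.0259, beside 1434, 1423 and 1386 for the epithelial Cdh1.

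Genes of S phase and mitosis were transcribed throughout, and all 24 were present, with a median of 74.7. Ccnd1, cyclin D1, stood at 615 ± 7.45, the sliding clamp Pcna at 177 ± 0.781, Mki67 at 157 ± 2.88 and Rrm2, a subunit of ribonucleotide reductase, at 150 ± 3.51. The lowest was cyclin E1, Ccne1, at 13.2 ± 1.06. All 8 cell cycle inhibitors were present as well, led by Cdkn1a (p21) at 186 ± 4.56, with Cdkn2a at 8.45 ± 0.400.

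In several families of glucose metabolism 1 member stood far above the rest. Slc2a1, which encodes the glucose transporter GLUT1, stood at 240, 234 and 225. The next transporter, Slc2a4, stood at 6.48 ± 0.311, and Slc2a3 had 17, 9 and 14 fragments. Within each sample Slc2a1 exceeded Slc2a3 by 1691-fold ± 472.

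Of 22 glycolysis genes 16 were present, and Hk3, Pgk2 and Pklr gave no value. Pkm, pyruvate kinase M, stood at 1665 ± 15.6, the aldolase Aldoa at 1548 ± 14.2, Pgam1 at 1046 ± 10.8 and Tpi1 at 996 ± 6.95. Aldoa exceeded Aldoc by 18.02-fold ± 0.444. The hexokinases Hk1 and Hk2 were close, at 115 ± 2.97 and 96.4 ± 1.90, and their order turned on the deposited TPM scale. Pfkl exceeded Pfkp by 2.53-fold ± 0.0283. Eno1 stood at 302 ± 4.49 and exceeded the neuronal Eno2 by 432-fold ± 76.1, but an intronless copy of Eno1 is also listed, so the level of Eno1 is uncertain.

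The end of glycolysis was dominated by Ldha, the lactate dehydrogenase subunit abundant in glycolytic tissues. Ldha stood at 1170, 1180 and 1162 and Ldhb, the subunit abundant in heart, at 7.11, 6.37 and 7.81. Ldha thus exceeded Ldhb by 165, 185 and 149-fold, with no overlap. Fragments of Ldhb were not whole numbers in any of the 12 samples, so part of them was shared with another gene and its level is uncertain. The 250 bases before the start sites of both genes are shown for this contrast, from RefSeq on GRCm38.p6, 5′ to 3′ on the strand of the gene. They cover chr7:46845554-46845803 (plus strand) for Ldha, at the more upstream of 2 listed starts, and chr6:142507958-142508207 (minus strand) for Ldhb. Capitals mark ACGTG on either strand (its reverse reads CACGT), with overlapping matches joined.
Ldha: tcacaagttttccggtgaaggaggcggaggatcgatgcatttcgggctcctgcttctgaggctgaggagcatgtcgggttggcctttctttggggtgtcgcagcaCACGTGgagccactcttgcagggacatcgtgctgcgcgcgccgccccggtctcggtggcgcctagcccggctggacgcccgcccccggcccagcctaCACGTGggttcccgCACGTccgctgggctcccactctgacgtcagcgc
Ldhb: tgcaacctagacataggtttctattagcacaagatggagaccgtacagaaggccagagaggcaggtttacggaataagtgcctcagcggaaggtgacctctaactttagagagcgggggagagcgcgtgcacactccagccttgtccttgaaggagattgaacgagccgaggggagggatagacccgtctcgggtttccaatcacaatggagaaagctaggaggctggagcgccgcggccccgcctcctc

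The Ldha stretch held 3 such matches, beginning 145, 48 and 34 bases before the start, and the Ldhb stretch held none. Of 32841 promoters of this length, 16.6% held at least 1. The motif was chosen after the sequences were seen, and a match of letters is not a measured site. Lactate leaves cells through monocarboxylate transporters. Slc16a3 stood at 110 ± 2.26 and exceeded Slc16a1 by 2.38-fold ± 0.0773, and their chaperone Bsg stood at 2172 ± 35.6.

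Genes for the entry of pyruvate into mitochondria were transcribed at a lower level. Mpc1 and Mpc2 encode the subunits of the mitochondrial pyruvate carrier, the target of UK5099. Mpc1 stood at 26.6, 25.4 and 28.7 and Mpc2 at 6.52, 6.12 and 6.10. Mpc1 exceeded Mpc2 in 3 of 3 samples, by 4.31-fold ± 0.340. The ratio was 1.22 in fragments and 1.70 in deposited TPM. Fragments counted for this ratio were in part not whole in each of the 12 samples, so the ratio and the levels behind it are uncertain.

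Pdha1, a subunit of pyruvate dehydrogenase, stood at 150 ± 1.57. It exceeded Pdk1, a kinase that switches the enzyme off, by 1.87-fold ± 0.0333, an order that turned without division by length. Pdk1 exceeded Pdk2 by 9.52-fold ± 0.827, and Pdk4 straddled the limit at 0.983 ± 0.149. Pcx, the carboxylase that feeds pyruvate into the cycle as oxaloacetate, stood at 9.11 ± 0.0547 and lay 16.4-fold ± 0.260 below Pdha1.

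All 17 genes of the TCA cycle were present, between 28.1 ± 0.445 for Suclg1 and 194 ± 3.68 for Sdhd. Cs, which makes citrate, stood at 164 ± 1.14.

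Of 22 genes for citrate export and zinc handling 19 were present. The metallothioneins, which bind zinc, led with Mt2 at 2952 ± 41.8 and Mt1 at 763 ± 8.76, a 3.87-fold ± 0.0333 difference. The zinc importers Slc39a1 and Slc39a4 stood at 232 ± 2.02 and 225 ± 2.59. At the low end, the zinc exporter genes Slc30a2 and Slc30a10 and the citrate transporter Slc13a5 had no more than 22, 2 and 3 fragments in any vehicle sample.

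**Figure D2:**
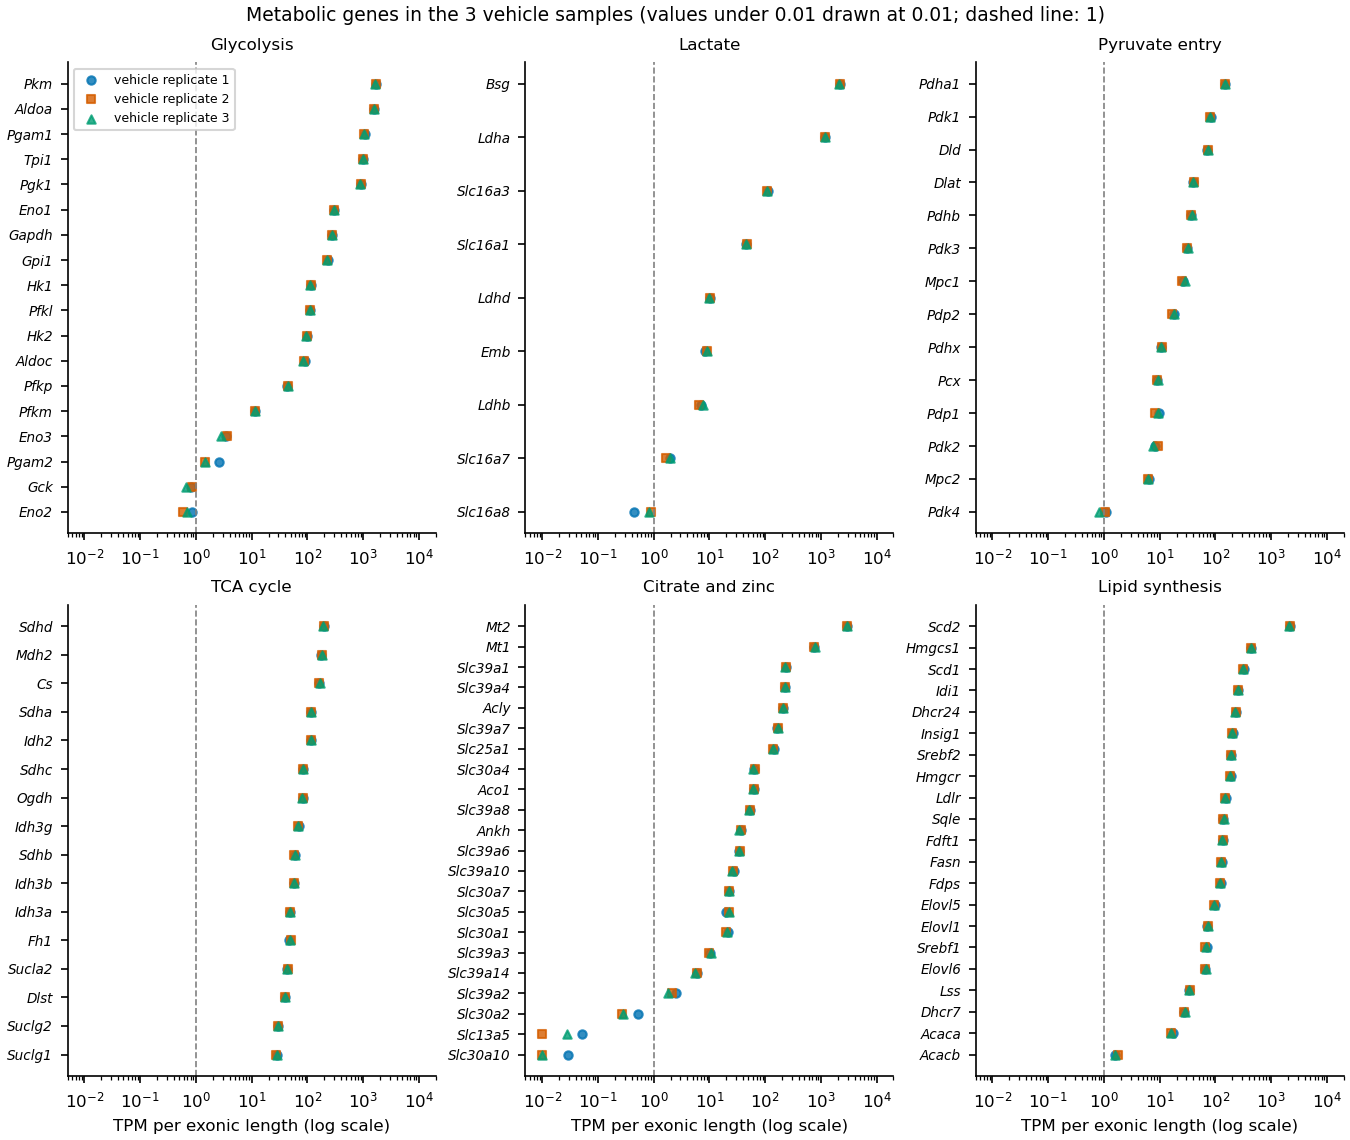
Levels of metabolic genes in vehicle organoids, in TPM per exonic length on a log axis, with 1 gene per line and 1 point for each of the 3 samples. The dashed line marks 1, and values under 0.01 are drawn at 0.01. Ldha at 1171 and Ldhb at 7.10 lie far apart, while the genes of the TCA cycle lie within 28.1 to 194.

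All 21 lipid and cholesterol synthesis genes were present, from Scd2 at 2130 ± 41.2 to Acacb at 1.66 ± 0.133. Scd2 exceeded Scd1 by 6.79-fold ± 0.0416 and Acaca exceeded Acacb by 9.92-fold ± 1.01. All 14 genes of glutamine use and transamination were present, led by the transporters Slc38a2 at 320 ± 1.91 and Slc7a5 at 207 ± 4.52.

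Fatty acid oxidation had 16 of 18 genes present, with Acadl at 129 ± 1.40. All 7 pentose phosphate genes were present, led by Tkt at 256 ± 4.10. In gluconeogenesis Pck2, the mitochondrial carboxykinase, stood at 40.6 ± 0.364. Its cytosolic relative Pck1 had no fragment, which allows up to 0.0768 TPM per exonic length.

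The respiratory chain was transcribed from both genomes. The 13 mitochondrially encoded genes ran from 1112 ± 33.9 for mt-Nd3 to 16265 ± 528 for mt-Co1. Of 24 nuclear genes 23 were present, led by the ATP synthase subunits Atp5a1 at 665 ± 7.43 and Atp5b at 662 ± 7.596, whose values overlapped. Ppargc1a, a coactivator of mitochondrial genes, was the lowest at 0.547 ± 0.0597.

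Inflammatory mediators were transcribed without any added stimulus on the labels. Of 23 chemokine and cytokine genes 20 were present. The neutrophil chemokines Cxcl1 and Cxcl2 stood at 299 ± 8.84 and 259 ± 2.48, Cxcl16 at 247 ± 3.43 and the alarmin Il33 at 206 ± 7.27. By contrast Il6 had 9, 3 and 7 fragments and Il1b had 2, 2 and 0.

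Secreted defence and acute phase genes had 11 of 22 members present and 4 without a value. Cp stood at 337 ± 2.71, the complement component C3 at 172 ± 1.60 and Lcn2, which sequesters iron carriers of bacteria, at 168 ± 2.34. Saa3, Reg3g and Chil1 stood at 0.259 or less. Of 22 proteases and inhibitors 17 were present, led by the urokinase Plau at 264 ± 6.22 and Mmp14 at 214 ± 1.33. The kallikreins Klk7 and Klk11 had no fragment, which allows up to 0.139 and 0.179 TPM per exonic length.

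Matrix genes had 13 of 17 members present, led by Thbs1 at 457 ± 9.08, with Agrn, Lama5 and Lamc1, all of the basement membrane, at 237 ± 0.918, 218 ± 5.64 and 139 ± 4.73. Postn, a stromal matrix protein, stood at 0.249 ± 0.0539. Among growth factor ligands 22 of 29 were present. The Notch ligand Jag1 stood at 232 ± 1.55, Vegfa at 171 ± 2.52 and the EGF receptor ligand Areg at 140 ± 2.08, while Egf itself had 7, 10 and 8 fragments. Of 21 receptors 19 were present, led by Tgfbr2 at 109 ± 2.34, Erbb3 at 104 ± 3.29 and Bmpr1a at 102 ± 1.60, while Erbb4 had 2, 5 and 4 fragments. Lgr4 stood at 67.0 ± 1.51 and the stem cell receptor Lgr5 at 0.231 ± 0.0574.

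Of 16 water and ion channel genes 13 were present. The sodium pump subunit Atp1b1 stood at 205 ± 4.48, the chloride channel Ano1 at 205 ± 5.89 and the cotransporter Slc12a2 at 194 ± 5.37. Aqp1 had 3, 2 and 2 fragments.

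**Figure D3:**
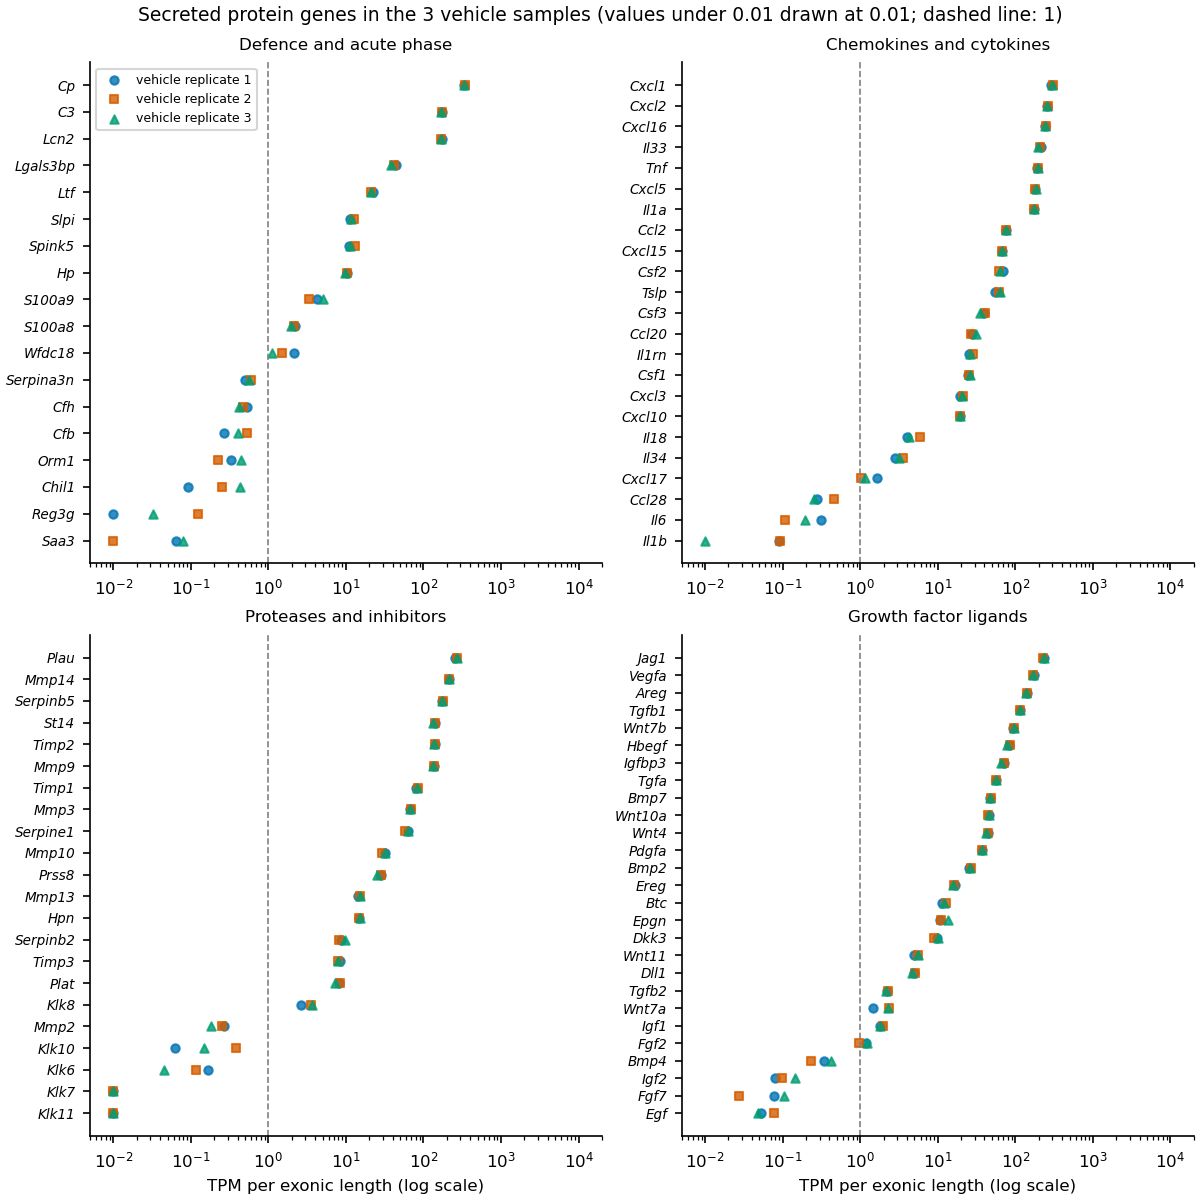
Levels of genes for secreted and shed proteins in vehicle organoids, in TPM per exonic length on a log axis, with 1 gene per line and 1 point for each of the 3 samples. The dashed line marks 1, and values under 0.01 are drawn at 0.01. Cxcl1 leads the cytokines at 299, while Il1b lies near 0.0603.

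Hox genes with high numbers stood highest. These genes lie in 4 clusters and are numbered by position within them, and those with high numbers pattern posterior tissues. Of 39 listed genes 23 were present and 10 gave no value, namely all 9 of the Hoxc cluster and Hoxb1. Hoxd13 stood at 118, 121 and 117, Hoxa10 at 48.8 ± 1.39, Hoxb13 at 45.6, 45.6 and 45.0 and Hoxa9 at 27.4 ± 0.758.

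All 11 measured genes numbered 9 to 13 were present, with a median of 26.6, beside 9 of 11 numbered 4 to 8, with a median of 2.90, and 3 of 7 numbered 1 to 3, with a median of 1.06. Their summed levels were 343 ± 6.86, 94.9 ± 2.05 and 7.13 ± 0.145. By cluster the sums were 169 ± 2.82 for Hoxa, 90.7 ± 0.641 for Hoxb and 185 ± 3.38 for Hoxd. Fragments of several genes, Hoxa11 and Hoxd11 among them, were mostly not whole, so part of them was divided between genes and these levels are uncertain.

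**Figure D4:**
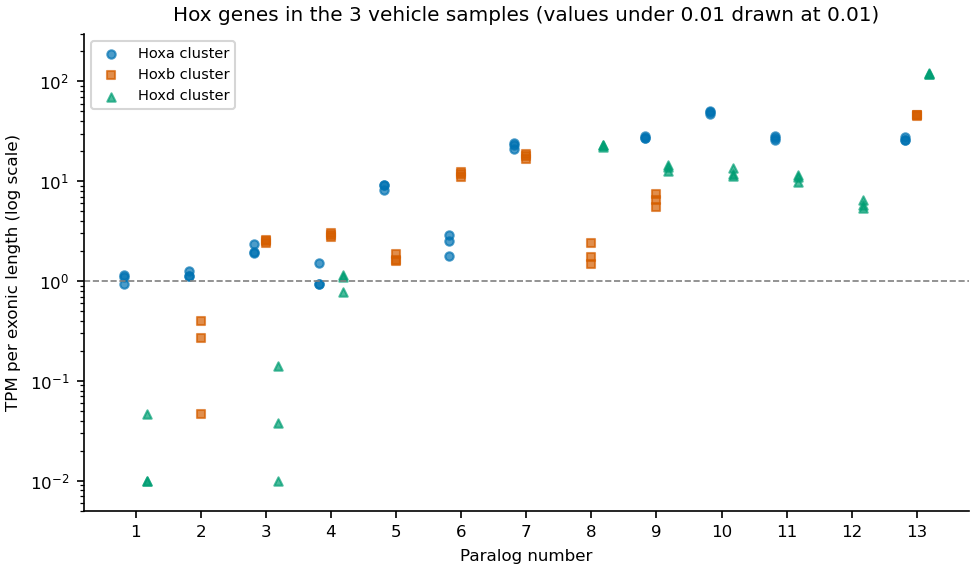
Levels of Hox genes in vehicle organoids, in TPM per exonic length on a log axis against paralog number, with 3 points per gene for the 3 samples and a marker shape for each cluster. The dashed line marks 1, and values under 0.01 are drawn at 0.01. Hoxd13 is the highest at 119, and Hoxd1 and Hoxd3 lie under 0.1 on average.

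Differences within samples were read for 24 pairs of genes for which both members gave a value. The first gene was higher in 3 of 3 samples for 17 pairs and lower in 3 of 3 for 7 pairs, with no mixed pair. The exact sign-flip permutation test, two-sided, gave p = 0.25 for each pair and 0.25 after Benjamini-Hochberg adjustment over the pairs, which is the smallest value 3 samples allow. These ratios are therefore read against their SD only. Their size depended on the lengths used. On the scale of fragments or of deposited TPM, 16 of the 24 moved by more than 1.5 times, among them Ldha to Ldhb at 349 and 437 and Slc2a1 to Slc2a3 at 796 and 2008.

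The vehicle samples were close to each other. Among 10767 protein-coding genes with at least 100 fragments in each sample, the SD of log2 fragments per 1000000 was 0.04 at the median and 0.14 at the 95th percentile. The 10 most variable genes had an SD of 0.32 to 0.53. Of these, Gm49388, Gm50388, Gm3055, Gm20431, Gm21988 and Timm8a1 had fragments that were mostly not whole. Pdgfd, a platelet-derived growth factor, varied between 3.61 and 5.78 fragments per 1000000, Cmpk2, an interferon-induced kinase, between 2.91 and 4.45, Tnfsf10, the death ligand TRAIL, between 3.43 and 5.24, and Garnl3 between 2.66 and 4.07. Cmpk2, Tnfsf10 and Garnl3 were all lowest in replicate 3.

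The baseline was then set against the mean of the 3 drug groups, so a call need not hold for each group. With limma on log2(TPM + 1), 437 of 24674 genes (1.77%) were higher in vehicle and 280 (1.13%) lower, at an adjusted p under 0.01 and a difference over 1 on the log2 scale. Together they were 2.91% of the genes tested. Among protein-coding genes that averaged 1 TPM or more, 5.90% were called, 3.53% higher and 2.37% lower. After median of ratios scaling the shares were 2.51% of all genes (0.924% higher and 1.59% lower) and 5.02% of those protein-coding genes (1.88% and 3.14%). The balance depended on the scaling. The median difference of the 13345 genes that averaged 1 TPM or more was 0.28 as deposited and 0.02 after median of ratios scaling, and the share of called genes that were higher in vehicle moved from 60.9% to 36.8%. With quantile normalisation it was 38.7% and with fragments per 1000000 it was 46.8%. The differences below are on the deposited scale and are to be read against the shift of 0.28.

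The genes named here were chosen among those whose vehicle and treated values lay apart, so that separation is no result of its own. The 10 lowest in vehicle included several of squamous epithelia. Nccrp1, an F-box-like protein of squamous epithelia, stood at 3.01, 2.64 and 2.85 TPM in vehicle and at a lowest of 152, a median of 232 and a highest of 676 in the treated samples. Its difference was -6.22 ± 0.15 (SE), with a limma adjusted p of 9.80e-10. Aqp3, the water and glycerol channel of stratified epithelia, stood at 3.57, 3.54 and 2.92 TPM against 104 to 298, a difference of -5.26 ± 0.05.

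The other genes of the lowest 10 were Cstdc5, a cystatin-like protease inhibitor, Teddm3, the stress keratin Krt6b, the Ly6 family member Ly6g6c, Krtdap, the fatty acid carrier Fabp5, Calm4 and Crnn, a cornified envelope protein. Their differences ran from -5.77 for Cstdc5 to -4.29 for Crnn. Fragments of Krt6b, Teddm3, Cstdc5 and Fabp5 under 1000 were mostly not whole, so these levels are uncertain. Fabp5 stood at 21.4 ± 0.678 TPM in vehicle and between 299.7 and 1134 with treatment.

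Over the squamous list, 20 of 26 genes were lower in vehicle and 0 were higher, with a median difference of -2.01. Of all genes 1.13% were lower, and of protein-coding genes that averaged 1 TPM or more 2.37%. The counts of the list were equal after median of ratios scaling. The list was chosen with results of these samples known, so the count is a description. Sfn, the abundant 14-3-3 protein, was not called.

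The 10 highest in vehicle were led by Fn1, Rgs4 and Clu. Fn1 (chromosome 1, 71624679 to 71692359) stood at 72.1, 68.2 and 70.2 TPM in vehicle and between 0.234 and 2.24 TPM in the treated samples. Its difference was 5.18 ± 0.03 (SE), with a limma adjusted p of 1.34e-12. Clu stood at 515, 514 and 502 TPM against 8.24 to 55.6, a difference of 4.43 ± 0.03 with an adjusted p from limma of 2.69e-12.

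Rgs4, a regulator of G protein signalling, Spp1, the colony stimulating factor Csf2, Mia, Plekhs1, the growth factor Pdgfb, Cd14 and the protease inhibitor Timp1 completed the highest 10, with differences from 4.67 for Rgs4 to 2.76 for Timp1. Fragments of Mia were whole in 1 of 12 samples, so its level is uncertain. All 20 genes kept their call after median of ratios scaling.

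The lineage markers moved apart. Krt8, Krt18 and Epcam were higher in vehicle, by 2.00 ± 0.02, 1.42 ± 0.01 and 1.65 ± 0.02 (limma, adjusted p of 1.81e-11, 1.40e-11 and 5.69e-11). Krt5 was lower, by -1.16 ± 0.01 with an adjusted p of 2.55e-11 from limma. Trp63 differed by -0.67 ± 0.03 and Krt14 by -0.81 ± 0.03, both under the limit on the difference, and Krt14 passed it after median of ratios scaling at -1.12. With fragments per 1000000 both passed it, Krt14 at -1.07 and Trp63 at -1.03. Krt14 also overlapped between vehicle and treated samples, with 1365 to 5237 TPM in the latter beside 1676 ± 22.2 in vehicle. Its treated groups lay on both sides of vehicle. In TPM per exonic length the Krt14 means were 2358 in vehicle, 2123 with butyrate, 7201 with UK5099 and 5587 with the combination.

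The list counts are to be read beside 1.77% higher and 1.13% lower of all genes. Like the squamous list, these lists were chosen with earlier results of these data known, so their counts are descriptions. Of protein-coding genes that averaged 1 TPM or more, 3.53% were higher and 2.37% lower (1.88% and 3.14% after median of ratios scaling). Small counts in a long list, such as the luminal signature, can lie near these shares. By list, 5 luminal keratin and adhesion genes of 13 were higher in vehicle and 1 lower, and 3 of 22 basal genes were lower and 0 higher. After median of ratios scaling these were 4 higher and 1 lower, and 6 lower and 0 higher. Other luminal lists were mixed, with 3 of 12 luminal progenitor genes higher and 2 lower (3 and 2 after scaling) and 2 of 57 luminal signature genes higher and 3 lower (2 and 4). Of the 19 measured basal signature genes 1 was higher and 3 were lower, before and after scaling. Of 23 chemokine and cytokine genes 11 were higher and 2 lower (7 and 2 after scaling), and of 22 proteases and inhibitors 9 were higher and 0 lower (4 and 0). Of 17 matrix genes 4 were higher and 0 lower (3 and 0), and of 18 defence and acute phase genes 5 were higher and 4 lower (5 and 4). Summed luminal keratin and adhesion levels were 16490 to 16993 TPM per exonic length in vehicle and 6292 to 10814 in the treated samples. The luminal progenitor sums were 5047 to 5278 in vehicle and 6333 to 8301 with treatment. The basal sums overlapped, with 15318 to 15363 in vehicle and 14466 to 27123 with treatment, and the median difference of the basal list was -0.01. Chemokine and cytokine sums overlapped as well, with 1976 to 2012 and 1349 to 2433. None of these sums was scaled by median of ratios.

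Few metabolic genes were called, but few genes were called at all. The shares were 2.91% of all genes and 5.90% of protein-coding genes that averaged 1 TPM or more. A list of this size without a called gene, metabolic or Hox, is therefore not set apart by that count. None of 19 glycolysis genes, 17 of the TCA cycle, 14 of pyruvate entry, 21 of lipid synthesis, 18 of fatty acid oxidation or 24 nuclear respiratory genes was called in either direction. Their medians lay between -0.07 for glycolysis and 0.35 for lipid synthesis, beside the shift of 0.28. Of 22 citrate and zinc genes 2 were higher and 0 lower (2 and 1 after scaling), and of 14 genes of glutamine use 1 was higher and 1 lower (1 and 1). Of 9 lactate dehydrogenase and monocarboxylate transport genes none was called on the deposited scale and 2 were lower after scaling. Summed levels of the TCA cycle were 1464 to 1473 TPM per exonic length in vehicle and 1236 to 1370 with treatment. Those of lipid synthesis were 4944 to 5070 and 3529 to 4657. These sums were not scaled by median of ratios. With exonic lengths the median difference of genes that averaged 1 TPM or more was 0.23. After median of ratios scaling the median difference was -0.04 for the TCA cycle and 0.09 for lipid synthesis. Among the 24 S phase and mitosis genes only Ccnd1 was called, higher by 1.01, and its call was lost after scaling. The median of the list was 0.61, and 0.31 after scaling. None of 29 Hox genes was called. A gene that is not called is not thereby shown to be equal.

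**Figure D5:**
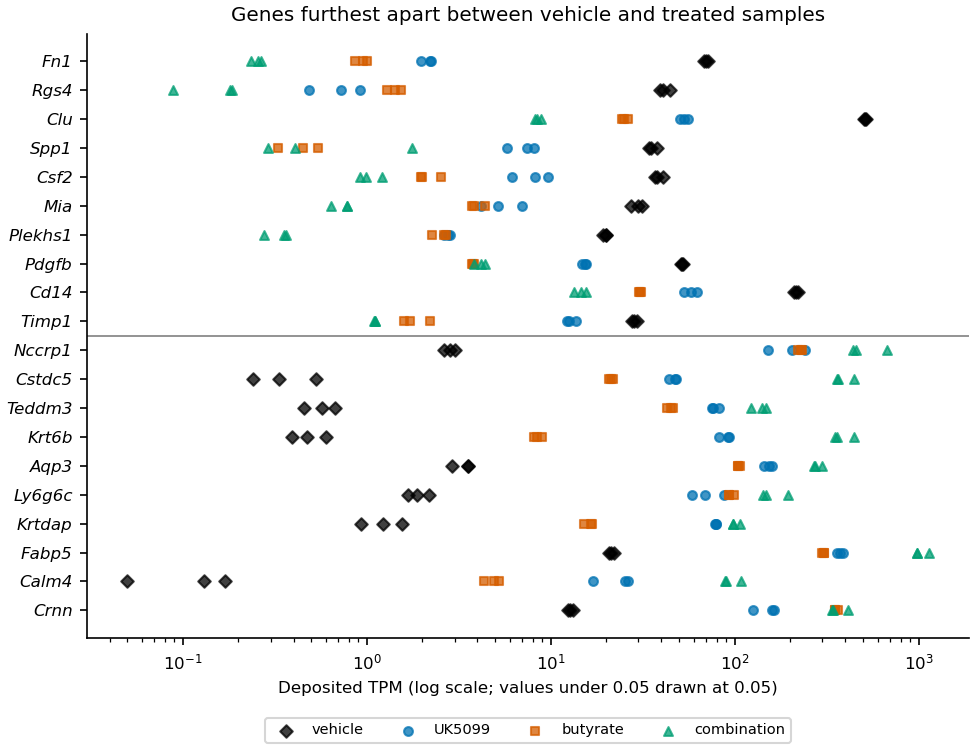
Deposited TPM on a log axis for the 10 genes highest and the 10 lowest in vehicle relative to the treated groups, with 1 point per sample and a marker for each of the 4 groups. Values under 0.05 are drawn at 0.05, and the line separates both sets. Fn1 lies at 68.2 to 72.1 in vehicle and at no more than 2.24 with treatment, and Nccrp1 at no more than 3.01 in vehicle and at least 152 with treatment.

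Summed levels of other cell type lists lay in both directions between vehicle and treated samples, but few of their genes were called. The summed immune list was 141 to 145 TPM per exonic length in vehicle and 57.7 to 101 in treated samples, of which Cd14 made up most in vehicle, and Cd14 was called higher and Cd68 lower. The summed stromal list was 7.71 to 8.62 in vehicle and 8.49 to 43.5 with treatment, with Ptprc, Kdr, Myh11 and Chga near 0 in vehicle throughout. The summed neuroendocrine list was higher in vehicle, at 9.80 to 10.7 against 2.90 to 8.40. The endothelial list was lower, at 1.68 to 1.91 against 2.51 to 4.75. None of 9 neuroendocrine or 6 endothelial genes was called in either direction, before or after median of ratios scaling. Their median differences were 0.17 and -0.002. Of 11 stromal genes 1 was called lower. These sums are small and were not scaled by median of ratios. The part of other cell types in the differences was not tested.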

How the data were processed

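Libraries were made with rRNA depletion, mRNA enrichment and a stranded (dUTP) protocol, per the labels. The authors deposited TPM per gene, computed by their pipeline. The submitters' processing notes name STAR 2.7.9a, Partek and GRCm39, while the study's methods name another STAR release, RSEM and an Ensembl GRCm38 annotation, and 2.01% of nuclear genes have the start and end of the GRCm38 annotation used here. Coordinates are therefore given as listed. The deposited TPM used the genomic span (a linear length in bp, also deposited) of each gene. TPM times length moved in steps, which gave the fragments per sample. Of protein-coding values under 1000 fragments, 75.4 to 76.7% were whole within 0.02, and others are shared fragments, so no count test was run.

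TPM per exonic length used merged exons of GENCODE vM21, matched by gene ID for 96.9% of genes. All 24674 genes entered limma 3.58.1 in R 4.3.3 with 4 groups, and the contrast was vehicle minus the mean of the 3 treated groups, with Benjamini-Hochberg adjustment over all genes. The script was tested on simulated data. Pairs were tested with scipy 1.17.1. Python 3.11.15 was used.

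Members were the samples labelled as vehicle, and gene lists and pairs were chosen with earlier results of these data known. The genes named were the 6 lineage markers, the 20 leading genes in fragments and per exonic length, up to 4 highest and 3 lowest members of each list and the genes of the pairs, the 10 most variable genes and the 10 highest and 10 lowest genes of the contrast, where a group had to average 1 TPM and vehicle and treated values had to lie apart. Genes named outside it (such as Cdh1 beside Cdh2, Cldn3, Cp, Pdpn, Col17a1, Col7a1, Hoxa11 and Hoxd11) were chosen after their values were seen. Some list members and leading genes are counted but not named or drawn here. The mean chi-square per gene between vehicle replicates was 1.84 to 2.05, more than sampling noise gives for whole counts. Shared fragments may raise it, and it does not show that the replicates were independent. The same value was 1.86 to 2.03 between butyrate replicates and 2.80 to 3.64 between UK5099 replicates. In the combination group it was 7.75 and 7.25 for replicate 1 against replicates 2 and 3, and 1.85 between replicates 2 and 3. Each replicate counted as 1 sample. Floors cover counting error only. Values after ± are SDs between the vehicle samples or, for differences from the treated groups, standard errors from limma. All value columns matched a sample.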

Additional observations from a re-analysis of the deposited data

How the results depend on the processing

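The totals of present genes, of listed genes present and of pairs in which the first gene was higher stayed within 1.5 times the reported count under every alternative run. Single lists were less stable, and 9 of 38 moved by more than 1.5 times under some limit: neuroendocrine, stromal, endothelial, mesenchymal, glucose transport, gluconeogenesis, water and ion channels (13 to 8 at a limit of 5) and both published signatures (luminal 25 to 12 at a limit of 5 and to 10 on deposited TPM, basal 15 to 9 on deposited TPM). The protein-coding genes present in vehicle numbered 9581 at a limit of 5 and 12784 at 10 fragments, and 11614 to 11623 when 1 vehicle sample was left out. Of the 20 genes with the most fragments, 9 were kept by rank per exonic length and 6 by deposited TPM, and all 20 without any 1 vehicle sample. Of 24 pair ratios 12 moved by more than 1.5 times in fragments and 9 in deposited TPM, and 3 log2 ratios turned: Krt8 to Krt18 was 0.34 and Pdha1 to Pdk1 was -0.15 by fragments, and Hk2 to Hk1 was 0.40 by deposited TPM, where other lengths enter.

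For the contrast with the treated groups, called genes were 1040 higher and 687 lower in vehicle with a pseudocount of 0.1. They were 228 higher with median of ratios scaling and 241 with quantile normalisation, with 392 and 381 lower. They were 455 lower (603 higher) with exonic lengths and 563 lower (495 higher) with fragments per 1000000. In all, 228 genes were called higher and 280 lower by both the deposited and the median of ratios scale. Leaving out each sample gave 436 to 463 higher and 274 to 289 lower. Median of ratios scaling took the median difference from 0.28 to 0.02, and the cause of the shift was not tested. Same-numbered samples did not deviate together (0 of 18 correlations over 0.1, from -0.11 to 0.03), so no pairing by number was seen. A weak shared effect could be missed by these correlations. The replicate block gave 435 higher and 280 lower. Limits: 3 samples of unstated independence, genomic spans in the deposited values, fragments shared between copies, and genes with a few fragments, for which no level under 3 fragments can be told from 0.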
